A study of Eleusine coracana with 4 samples.

Results

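The salt response of a locus is its level in salt-stressed leaves relative to unstressed leaves, and the values below describe where that response differed between the finger millet (Eleusine coracana) genotypes Trichy 1 and CO12. For each locus the quantity is a difference of log2 ratios, salt over control in Trichy 1 minus salt over control in CO12. It was taken over the 450 loci, of 55986 in the deposited tables, that had 20 or more reads in at least 1 library of each genotype and at least 90% unique reads over the 4 libraries. A positive difference means that the locus was relatively higher under salt in Trichy 1 than in CO12, and a negative one the reverse. The rule sets no limit on the response, but a locus can pass the read minimum through the library in which it is high. In CO12, 190 loci passed through the control library only and 4 through the salt library only, and in Trichy 1 these numbers were 127 and 23. Of the 230 loci with at least 20 reads in all 4 libraries, 16.5% had responses at least 2-fold apart, and of the other 220, 25.9% did.

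Leaf RNA was sequenced after depletion of ribosomal RNA in 4 libraries, 1 per group, all from young, fully expanded leaves near the shoot apex. The groups were CO12 kept well watered, CO12 given 300 mM NaCl, Trichy 1 kept well watered and Trichy 1 given 300 mM NaCl, with salt applied at the 4-leaf stage after 20 days of growth in soil. The sources used here give neither the time in salt before the leaves were taken nor the number of plants in a library. The title speaks of a tolerant genotype without naming it in the sample labels.

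Salt in the soil acts on a leaf first through water shortage and later through sodium and chloride that build up in the blades. Cereals counter it by excluding or compartmenting sodium, by making compatible solutes and by scavenging reactive oxygen. Genotypes of one species commonly differ in how strongly, how early and in which genes they respond, and a difference of responses separates this from levels that differ between the genotypes regardless of salt. In leaf tissue measured in bulk, fewer cells of a type and less RNA per cell cannot be told apart.

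The deposited tables list identifiers without gene names, so no locus below has a name or role, and the leaf origin could not be checked against marker genes. All 450 loci have identifiers of the LOC_Os form, the form of rice locus names. Lengths are those in the tables, and chromosome numbers are the digits that follow Os in the identifier, which need not be chromosomes of finger millet. Levels are given in RPM, the total reads of a locus for each 1000000 reads of its library, so that 1 RPM stands for 6.27 reads in unstressed CO12, 1.83 in stressed CO12, 3.35 in unstressed Trichy 1 and 2.41 in stressed Trichy 1.

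The loci took 62.4% to 69.8% of the reads of a library, almost all of it on a few of them. The 12 loci that are among the 20 most abundant features held 60.9% to 68.3%, and a single one, LOC_Os09g01000, held 21.3% to 35.7%. Without those 12, the loci shared 95273 reads in unstressed CO12, 26247 in stressed CO12, 55404 in unstressed Trichy 1 and 34855 in stressed Trichy 1. A typical locus had 80 reads, 23, 44.5 and 30 in the same order (medians). The CO12 salt library was the shallowest and supplied the largest part of the counting error of the difference for 326 of the 450 loci.

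For most loci the response had the same direction in both genotypes, 324 of 450, and for 259 it differed by under 1.5-fold between them. Salt and control were at least 2-fold apart for 108 loci in CO12 (24%) and for 122 in Trichy 1 (27.1%), and 16 loci were 2-fold higher and 33 were 2-fold lower under salt in both. For 103 loci the counting interval of the difference lay wholly within 2-fold either way. Across loci, which are not independent replicates, the responses of CO12 and Trichy 1 were correlated with Pearson's r = 0.59 and Spearman's rho = 0.59 (n = 450). The libraries behind the 2 responses are not shared, although the loci share their depth and their reference. By reads over the 4 libraries, r was 0.58 for the 184 loci with under 150, 0.64 for the 118 with 150 to under 300, 0.53 for the 94 with 300 to under 1000 and 0.71 for the 54 with 1000 or more.

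The response differed by at least 2-fold for 95 of the 450 loci, 21.1%. In Trichy 1 relative to CO12 it was higher for 41 (9.11%) and lower for 54 (12%). For 71 of the 95 the 95% counting interval excluded 0, and these are called divergent below, 29 with a higher response in Trichy 1 (6.44%) and 42 with a lower one (9.33%). The interval lay wholly beyond 2-fold for 5 loci higher (1.11%) and 4 lower (0.889%). It excluded 0 at any size for 47 (10.4%) and 74 (16.4%). With 1 library per group none of these differences has a replicate check and no test was made, so the intervals speak of the libraries and not of the genotypes. The balance of directions rested on how libraries were scaled: the median difference was -0.14 with library totals, and relative to that median the 2-fold counts were 50 and 40. Differences are printed as scaled to totals, and each can be read against that median.

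**Figure D1:**
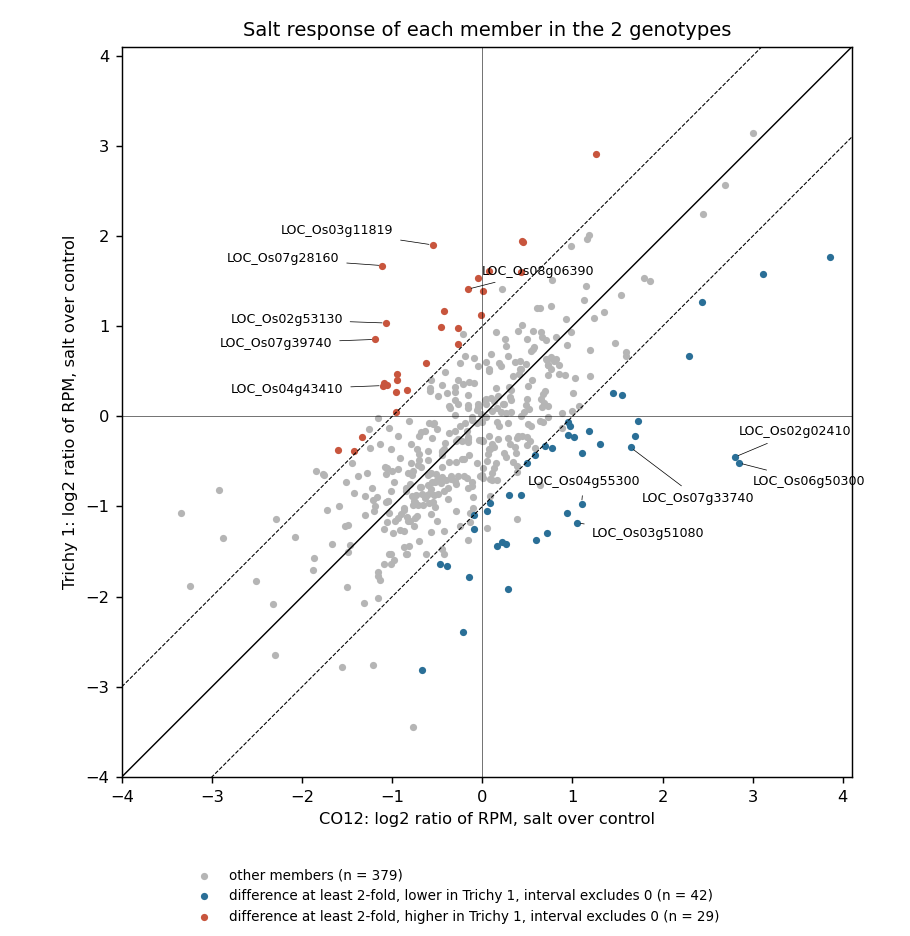
Each point is 1 of the 450 loci, with its log2 ratio of RPM (salt over control) in CO12 on the horizontal axis and in Trichy 1 on the vertical axis. The solid line marks equal responses, the dashed lines a 2-fold difference, and the coloured points are the 29 divergent loci with a higher and the 42 with a lower response in Trichy 1. The coloured points lie away from the solid line by selection.

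Divergent loci are selected for a large difference of the responses, which favours opposite signs by construction, so the following counts are a description. Over all loci the signs were opposite for 126 of 450, 28%, with libraries scaled to totals. Of the 29 loci with a higher response in Trichy 1, 20 had a lower level under salt in CO12 and a higher one in Trichy 1, 6 were higher in both and 3 lower in both. Of the 42 with a lower response in Trichy 1, 29 were higher under salt in CO12 and lower in Trichy 1, 6 were higher in both and 7 lower in both. Under the 5 other scalings described below, opposite signs held for 18 to 24 of the 29 and for 16 to 25 of the 42. Counted by size, a response of at least 2-fold in CO12 with one within 1.5-fold in Trichy 1 was seen for 6 of the 29 and 11 of the 42. The reverse, 2-fold in Trichy 1 and within 1.5-fold in CO12, was seen for 10 and 11. A further 9 and 10 were under 2-fold in each genotype. Loci that responded by 2-fold or more the same way in both genotypes were 1 of the 29 and 3 of the 42. Among the other 379 loci these classes of size held 13, 17, 253 and 45, in the same order.

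Divergent loci can also be read by where the genotypes stood apart. The genotypes were at least 2-fold apart under salt but not in control for 11 of the 29 and 17 of the 42, and in control but not under salt for 5 and 6. They were at least 2-fold apart in both, in opposite order, for 1 and 3, and under 2-fold apart in both for 12 and 16. Among the other 379 loci these numbers were 22, 11, 0 and 345, in the same order. The order of the genotypes without salt was the reverse of that with salt for 27 of the 29 and 40 of the 42, beside 143 of the other 379 loci. A difference of responses is the salt gap minus the control gap, so a large one favours reversed order by construction.

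The locus with the highest difference was LOC_Os07g28160 (chromosome 7, 3641 bp), all of whose reads were unique. It had 60.3 RPM in unstressed CO12, 27.8 in stressed CO12, 17.6 in unstressed Trichy 1 and 56.5 in stressed Trichy 1, from 378, 51, 59 and 136 reads. Salt thus went with the lower level in CO12 and the higher one in Trichy 1, and stressed Trichy 1 stood about where unstressed CO12 did. The level under salt was 2.16-fold lower in CO12 (95% interval 1.61 to 2.96) and 3.21-fold higher in Trichy 1 (2.35 to 4.43), a log2 difference of 2.78 (2.17 to 3.39). Without salt it was 3.42-fold lower in Trichy 1 than in CO12 (2.59 to 4.58), and with salt 2.03-fold higher (1.46 to 2.86).

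LOC_Os03g11819 (chromosome 3, 1436 bp) came next, again with unique reads only. Its levels were 20.9 RPM in unstressed CO12, 14.2 in stressed CO12, 10.5 in unstressed Trichy 1 and 39.5 in stressed Trichy 1. Stressed Trichy 1 was the high library, and its counting interval lay above those of the other 3. The response was 3.78-fold upward in Trichy 1 (95% interval 2.54 to 5.73). In CO12 the ratio of salt to control was 0.68 (0.428 to 1.04), whose interval included equality, and the log2 difference was 2.45 (1.63 to 3.27).

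At the other end stood LOC_Os06g50300 (chromosome 6, 6087 bp), with 2.23 RPM in unstressed CO12, 16.9 in stressed CO12, 12.5 in unstressed Trichy 1 and 8.73 in stressed Trichy 1. Unstressed CO12 was the low library and the other 3 lay within 2-fold of each other. The level was 7.58-fold higher under salt in CO12 (95% interval 3.92 to 15.4). In Trichy 1 the ratio was 0.695 (0.391 to 1.20), a log2 difference of -3.36 (-4.53 to -2.19). It rests on 14, 31, 42 and 21 reads, all unique, and the locus passed the read minimum in CO12 through the salt library, where it was high.

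LOC_Os02g02410 (chromosome 2, 3956 bp) had 1.91 RPM in unstressed CO12, 14.2 in stressed CO12, 6.87 in unstressed Trichy 1 and 4.99 in stressed Trichy 1, from 12, 26, 23 and 12 reads. It too passed the minimum in CO12 through the salt library, and in Trichy 1 through control. It was 7.42-fold higher under salt in CO12 (95% interval 3.61 to 16.1), with a ratio of 0.726 (0.329 to 1.52) in Trichy 1 and a log2 difference of -3.25 (-4.64 to -1.87). Its neighbour in the order of identifiers, LOC_Os02g02400 (2795 bp), was also divergent. That locus had 4.78, 42.6, 8.66 and 26.2 RPM in the same order of libraries. It was higher under salt in both genotypes, 8.91-fold in CO12 (5.78 to 14.1) and 3.02-fold in Trichy 1 (1.92 to 4.87), a log2 difference of -1.54 (-2.41 to -0.67). Of the 9 pairs of adjacent identifiers among the 450 loci this was the only one with both divergent, and it was singled out after its values were seen. The neighbours were alike in CO12, with the salt library far above control. In Trichy 1, LOC_Os02g02400 was higher under salt, while the interval of LOC_Os02g02410 included equality.

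**Figure D2:**
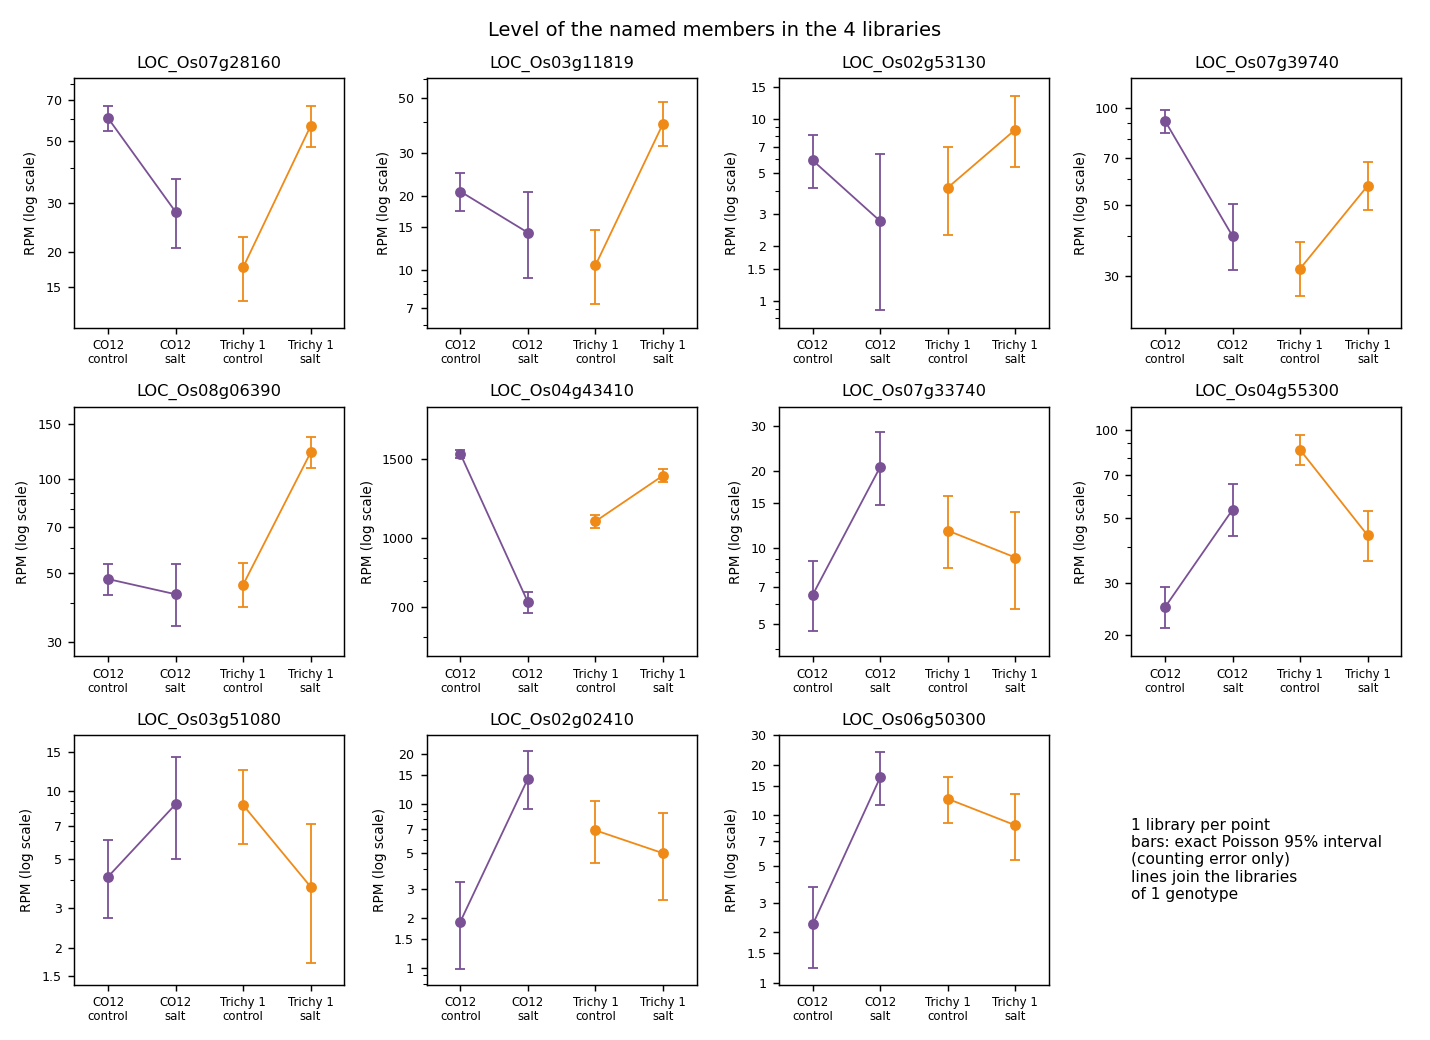
Level of 11 loci in RPM (log axis) in the 4 libraries, 1 library per point, with exact Poisson 95% intervals as bars and a line joining the libraries of each genotype. The loci were picked for extreme or opposite responses, and in 6 of the 11 the interval of 1 of the 2 ratios included equality. LOC_Os04g43410, at 717 to 1542 RPM, has the narrowest intervals.

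The other loci whose interval lay wholly beyond 2-fold, together with those of opposite 2-fold responses, were named after their values were seen. LOC_Os04g43410 (chromosome 4, 12362 bp) was the only divergent one among the 12 most abundant loci. It had 1542 RPM in unstressed CO12, 717 in stressed CO12, 1089 in unstressed Trichy 1 and 1379.8 in stressed Trichy 1, from 9675, 1313, 3646 and 3321 reads. It was 2.15-fold lower under salt in CO12 (95% interval 2.03 to 2.28) and 1.27-fold higher in Trichy 1 (1.21 to 1.33), a log2 difference of 1.45 (1.34 to 1.55). The genotypes were under 2-fold apart in both conditions, and stressed CO12 was the lowest library.

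LOC_Os07g39740 (chromosome 7, 2325 bp) had 91.0 RPM in unstressed CO12, 39.9 in stressed CO12, 31.7 in unstressed Trichy 1 and 57.3 in stressed Trichy 1. Its layout resembled that of LOC_Os07g28160, with unstressed CO12 highest and unstressed Trichy 1 lowest, and its log2 difference was 2.04 (95% interval 1.54 to 2.55). LOC_Os08g06390 (chromosome 8, 459 bp) had 47.7, 42.6, 45.7 and 122 RPM in the same order. Its first 3 libraries overlapped in their counting intervals and stressed Trichy 1 alone was high, 2.66-fold above its control (2.18 to 3.26), for a log2 difference of 1.57 (1.12 to 2.03).

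On the lower side, LOC_Os04g55300 (chromosome 4, 2452 bp) had 24.9 RPM in unstressed CO12, 53.5 in stressed CO12, 85.4 in unstressed Trichy 1 and 43.6 in stressed Trichy 1. It was 2.15-fold higher under salt in CO12 (95% interval 1.65 to 2.79) with a ratio of 0.511 (0.404 to 0.641) in Trichy 1, a log2 difference of -2.07 (-2.55 to -1.58). The genotypes stood 3.44-fold apart without salt (2.82 to 4.20) and their intervals overlapped with it. LOC_Os07g33740 (chromosome 7, 3815 bp) had 6.54, 20.7, 11.7 and 9.14 RPM in the same order. Stressed CO12 was its high library, and the log2 difference was -1.99 (-2.97 to -1.01).

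Responses of at least 2-fold in opposite directions were found for 3 of the 450 loci, 0.667%, and for 2 of these, 0.444%, both ratios had an interval that excluded equality. These counts are with library totals, and neither locus kept the call under all of the 5 other scalings described below. LOC_Os07g28160 was one, and its log2 response in CO12, -1.11, came to -0.91 and -0.93 under both scalings taken over the 450 loci. LOC_Os03g51080 (chromosome 3, 8541 bp) was the other, with 4.14 RPM in unstressed CO12, 8.74 in stressed CO12, 8.66 in unstressed Trichy 1 and 3.74 in stressed Trichy 1, from 26, 16, 29 and 9 reads. Its level was 2.11-fold higher under salt in CO12 (95% interval 1.06 to 4.08) and 2.32-fold lower in Trichy 1 (1.07 to 5.56), so both intervals came close to equality. Under each of the 5 other scalings it was under 2-fold in 1 genotype, with log2 responses in CO12 of 0.31, 0.54 and 0.98 or in Trichy 1 of -0.93 and -0.88. The third, LOC_Os02g53130 (chromosome 2, 3417 bp), had 5.90, 2.73, 4.18 and 8.73 RPM, from 37, 5, 14 and 21 reads. Its interval in CO12 included equality. It passed the read minimum in CO12 through control and in Trichy 1 through salt, in each genotype the library where it was high. Without a minimum size, 11 of the 450 loci had intervals on opposite sides of equality, 5 of them with the higher response in Trichy 1 and 6 with the lower. This count is with library totals and is not given for the other scalings. TMM factors over all features shift each CO12 response by -0.76 (log2), so positive responses smaller than that change sign.

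In the deeply read loci the differences were smaller. Of the 54 loci with 1000 or more reads over the 4 libraries, 3 differed by 2-fold or more (5.56%), all with the higher response in Trichy 1, and the differences of the 54 ran from -0.85 to 1.45. Besides LOC_Os04g43410 these were LOC_Os06g15910, with a difference of 1.04 (95% interval 0.64 to 1.44), and LOC_Os12g39930, with 1.00 (0.79 to 1.22), both named after their values were seen. LOC_Os12g39930 (527 bp) had 386 RPM in unstressed CO12, 199 in stressed CO12, 268 in unstressed Trichy 1 and 278 in stressed Trichy 1, and LOC_Os06g15910 (3914 bp) had 148, 55.2, 92.0 and 70.2. In both, stressed CO12 was the lowest library and unstressed CO12 the highest with library totals. Among the 184 loci with under 150 reads, 27.7% differed by 2-fold, 18 higher and 33 lower. The standard deviation of the difference was 0.97 there and 0.47 in the deepest loci, beside median counting errors of 0.68 and 0.13 (log2). In the 94 loci with 300 to under 1000 reads the standard deviation was 0.75 and the median counting error 0.32.

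**Figure D3:**
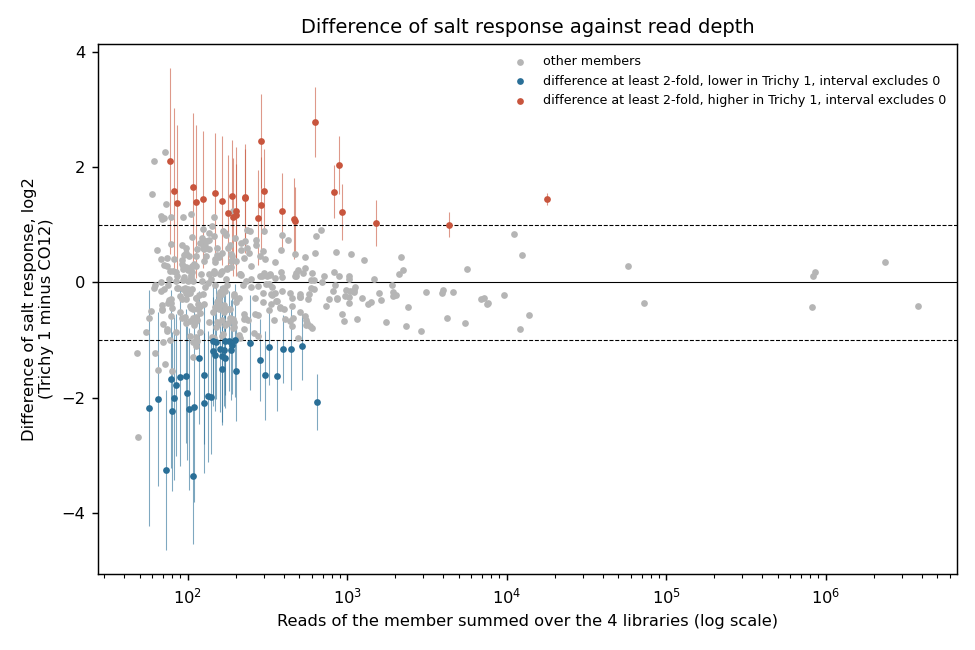
Difference of salt response (log2, Trichy 1 minus CO12) of the 450 loci against their reads summed over the 4 libraries (log axis), with 95% counting intervals drawn for the 71 divergent loci and dashed lines at 2-fold. The spread narrows to the right, and all 3 divergent loci with 1000 or more reads lie above 0.

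The most abundant loci differed by less than 2-fold, with 1 exception. Of the 12 among the most abundant features, 11 differed by under 2-fold, with differences from -0.80 to 0.84, although counting intervals excluded 0 for all 12. For comparison, 21.1% of the 450 loci and 5.56% of the 54 with 1000 or more reads differed by at least 2-fold. The adjacent loci LOC_Os09g01000 and LOC_Os09g00999 had nearly the same difference, -0.42 for each. Their shares of the reads enter every library total.

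The divergent loci, 71 of the 450 (15.8%), were close to the others in median length. By read depth they were fewest among the deepest loci. Of the 184 loci with under 150 reads, 7 were divergent with the higher response in Trichy 1 and 21 with the lower. These numbers were 11 and 14 of the next 118, 8 and 7 of the next 94, and 3 and 0 of the 54 deepest. Over the 450 loci the signed difference had a Spearman's rho of -0.01 with length, 0.06 with reads and 0.01 with the unique share. The 2 directions can cancel in such a rho, so it does not show what divergent loci share. The median length was 3417 bp for the 29, 3352.5 bp for the 42 and 3387 bp for the other 379. By chromosome number, median differences ran from -0.30 (chromosome 6, 39 loci) to -0.01 (chromosome 5, 35 loci). The share of divergent loci ran from 5.88% of 17 on chromosome 10 to 24.2% of 33 on chromosome 7, beside 15.8% of all 450. Chromosome 10 had 1 divergent locus, and chromosome 7 had 4 in each direction. The levels differed more. In CO12 control the 29 loci with a higher response in Trichy 1 had a median of 19.9 RPM and the 42 with a lower response 8.53. In CO12 salt the medians were 14.2 and 16.7, in unstressed Trichy 1 12.8 and 12.1, and in stressed Trichy 1 24.5 and 9.14. CO12 control thus held the lowest median for the 42 and the second highest for the 29, which follows in part from sorting by a difference that contains it.

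Loci with fewer unique reads were outside the 450, and a larger share of them had a response at least 2-fold lower in Trichy 1, which was not tested. Of the 236 loci over the same read minimum but with under 90% unique reads, 83 (35.2%) differed by at least 2-fold, beside 21.1% of the 450 and 25.9% of all 686. Of the 83, 22 had the higher response in Trichy 1 and 61 the lower. These were 9.32% and 25.8% of the 236, beside 9.11% and 12% of the 450, with library totals. Their counting intervals lay beyond 2-fold for 3 higher and 17 lower. These 236 loci were read more deeply in part, with a median of 389.5 reads over the 4 libraries for the 100 loci with under 10% unique reads and 144 for the 189 with unique reads only. The part of multiply matching reads in this was not tested. Just inside the limits, the 71 loci with 20 to 24 reads in their lesser genotype had a median difference of -0.09, with 33.8% at least 2-fold apart, and the 160 just outside, with 15 to 19 reads, had -0.10, with 36.9%. The 47 loci with 90% to under 95% unique reads had a median of -0.16, with 31.9% at least 2-fold apart, and the 18 with 85% to under 90% had -0.23, with 16.7%, so at this limit the order of the shares was the reverse of that between the 450 and the 236.

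The counts of each direction depended on the scaling of the libraries. With factors from the trimmed mean of M values (TMM) over the 450 loci, a response at least 2-fold higher in Trichy 1 was counted for 42 loci and a lower one for 44. With median-of-ratios factors over the same loci these numbers were 48 and 40, and with totals that leave out the 20 most abundant features 53 and 35. Factors not limited to the 450 loci moved the split further, to 66 and 27 with the median of ratios and to 103 and 21 with TMM. The former rest on the 4929 features read in all 4 libraries, which had a median of 4 reads per library, against 42 for the 450 loci. Each scaling adds 1 constant to every difference, here between 0.06 and 0.58 (log2) upward, so the 29 loci with a higher response stayed divergent under all 5 by construction. Of the 42 with a lower response, 12 did.

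**Figure D4:**
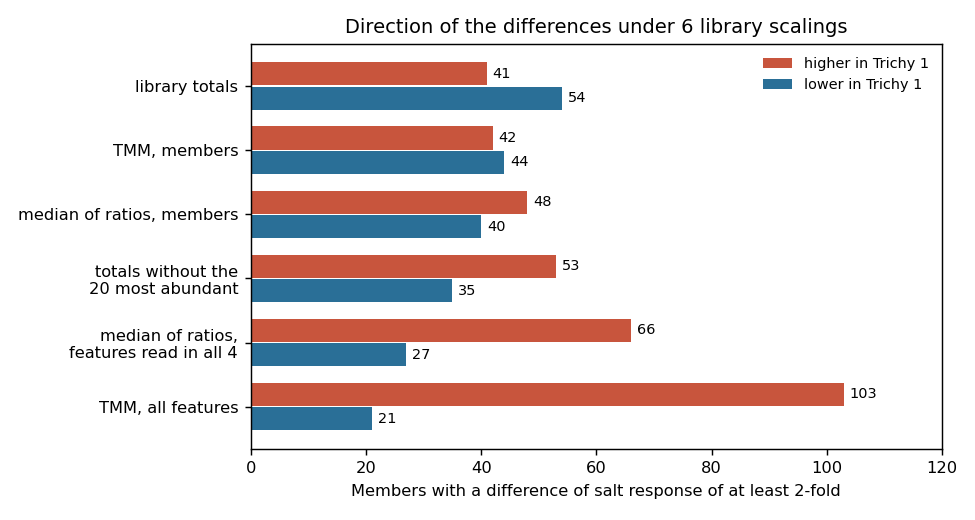
Number of loci, of 450, whose salt response differed by at least 2-fold between the genotypes, higher (red) or lower (blue) in Trichy 1, under 6 ways of scaling the libraries. The split goes from 41 against 54 with library totals to 103 against 21 with TMM factors over all features.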

How the data were processed

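The members and the list of results were chosen with earlier results of these data known. Per the file headers, the deposited tables give for each feature of 1 library 2 raw whole-number counts, total gene reads and unique gene reads. The deposited RPKM values repeat the counts per length and library total (largest relative difference 5.7e-08) and were not used. Per the labels' protocols, the RNA was treated with DNase, depleted of rRNA and cut with RNase III, and the fragments were sequenced on an Ion Proton. Not given in the sources used here are the aligner, the counting tool, the build, the handling of strand and the rule for reads that match several loci. Loci that overlap or lie antisense to one another therefore cannot be told apart. Totals were 6272817 and 1831353 reads for CO12 (control, salt) and 3347497 and 2406821 for Trichy 1, with 89.6% to 93.1% unique. Where the reference is rice, levels also depend on how closely the millet RNA resembles each locus.

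From the total gene reads, log2 ratios were formed after scaling to library totals and adding a prior of 0.5 count scaled to depth. The counting standard error of the difference came from the 4 counts, and its 95% interval is the normal one on the log scale. For ratios of 2 libraries, 95% intervals are exact conditional binomial (Clopper-Pearson), and for single levels exact Poisson. PCR copies are counted as reads, so all intervals cover counting error only. There is no test, since each group has 1 library. The computation was tested on simulated data. Named loci are the 2 highest and 2 lowest differences, the rule for unnamed identifiers, and others are said to be chosen after their values were seen. The 21 gene lists could not be matched to identifiers. TMM factors came from edgeR 4.0.16, and other values from Python 3.11.15 with scipy 1.17.1. The alternatives were other scalings, unique reads, a prior of 2.5, other read minimums, other unique shares and other thresholds. TMM over the members, centring on the median and leaving out loci with under 10 reads in a library were added after seeing the data.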

Additional observations from a re-analysis of the deposited data

Results flagged for a closer look

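In 2 loci the salt response went at least 2-fold one way in CO12 and at least 2-fold the other way in Trichy 1, with both counting intervals excluding equality. LOC_Os07g28160 had a log2 difference of 2.78 and LOC_Os03g51080 one of -2.23. This held with scaling to library totals. LOC_Os03g51080 was under 2-fold in 1 genotype with each of the 5 other scalings, and LOC_Os07g28160 in CO12 with both scalings taken over the 450 loci (log2 -0.91 and -0.93). The difference between genotypes was not tested, since each group has 1 library.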

How the results depend on the processing

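The results are the counts of loci whose response was higher (41) or lower (54) in Trichy 1 by at least 2-fold, the counts whose interval lay above (47) and below 0 (74), the 2 opposite loci and the median difference of -0.14. With TMM factors over all features the first 4 counts were 103, 21, 133 and 16, and the median was 0.44. With median-of-ratios factors over features read in all libraries they were 66, 27, 78 and 33, with a median of 0.20. The median was -0.011 with median-of-ratios factors over the 450 loci and 0.050 with totals without the 20 most abundant features, where 35 loci were 2-fold lower and 49 had an interval below 0. A scaling moves all differences alike, so these shifts are by construction.

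Other sets of loci gave other counts. With no minimum unique share (686 loci) they were 63, 115, 76 and 171. With a minimum of 10 reads, 125 loci were higher, 140 lower and 75 had an interval above 0. With a minimum of 50 reads (217 loci), 17 were higher, 13 lower and 44 had an interval below 0. With no minimum (11398 loci) the counts were 3805, 3017, 119 and 200, with a median of 0.064, and most of these loci have few reads. At 4-fold, 6 loci were higher and 11 lower, and without loci with under 10 reads in a library 27 were higher.

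The opposite loci numbered 1 with median-of-ratios factors over the 450 loci, totals without the most abundant features, a prior of 2.5, a unique share of 95%, a minimum of 50 reads, centring on the medians, and without loci with under 10 reads in a library. The 1 with median-of-ratios factors over the 450 loci was LOC_Os07g39740, with log2 responses of -1.01 in CO12 and 1.16 in Trichy 1. Centring also left that locus alone. With neither setting did LOC_Os07g28160 or LOC_Os03g51080 meet the call. The opposite loci also numbered 2 with TMM and median-of-ratios factors not limited to the 450 loci. LOC_Os03g51080 was not among those, so equal counts need not be the same loci. They numbered 0 with TMM factors over the 450 loci, 4 at 1.5-fold in each genotype, 6 with a minimum of 10 reads, 7 with no unique share minimum, 7 with no read minimum and 11 with intervals only. Of these values, the other 42 were no more than 1.5 times above or below the reported count, or under 0.1 from the median.

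The difference of each of the 11 plotted loci kept its sign under all 8 alternatives tried on it. For the 5 other scalings and the centring this was fixed beforehand. Each of these adds 1 constant, at most 0.58 (log2), and the smallest difference among the plotted loci, either way, was 1.45. The difference stayed inside its counting interval in 80 of 88 cases, which under a scaling only compares that constant with the interval's width. LOC_Os04g43410, whose interval is narrow, moved in 5 of its 8, between 1.45 and 2.03. No alternative that leaves out 1 replicate could be run, since each group has 1 library. No paired analysis was possible because the groups hold 1 library each. Medians over the gene lists were not run because identifiers have no names here. Depth limits the loci with few reads most: 86 of the 450 had under 10 reads in at least 1 library, 75 of them in CO12 salt.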
